A study of Caenorhabditis elegans with 2 samples.

Results

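The regions described here are the peaks of the tagged protein T22C8.4 at nuclear tRNA genes of Caenorhabditis elegans. A peak was counted when its summit, the base of highest signal, lay inside or within 150 bp of a gene with the biotype tRNA in the Ensembl WBcel235 annotation. The pooled peak list held 213 such peaks among 2415 (8.82%, exact binomial 95% interval 7.72% to 10.02%), called tRNA-gene peaks below. They lay at 223 of 612 nuclear tRNA genes, since some summits had a pair of tRNA genes in reach. Of the 223 genes, 12 were counted only through a summit nearer to another tRNA gene.

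The samples were 2 biological replicates of 1 group of whole mid-stage embryos of strain OP785, collected by egg bleaching, with a labelled age of 2 hours. The strain carries the transgene wgIs785, in which T22C8.4 is fused to TY1, EGFP and 3xFLAG on a construct from a single-colony clone, together with unc-119(+), in the mutant background unc-119 (tm4063). Chromatin sonicated to 200 to 800 bp was immunoprecipitated with an antibody against GFP. An untagged strain was not analysed here, so signal without the tagged protein was not measured, and whole embryos do not show in which cells a site was bound.

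RNA polymerase III transcribes tRNA genes from a promoter inside the gene. Its A box lies near the start of the tRNA, in the D arm, and its B box in the T arm. Transcription factor TFIIIC binds both boxes and places TFIIIB just upstream of the gene, where TFIIIB recruits the polymerase, and a run of T after the gene ends transcription. In C. elegans many tRNA genes are identical copies scattered over the genome, many on X and inside introns of protein-coding genes, and cells read each codon through the anticodon carried by these copies.

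Sequences of 6 genes under strong peaks are shown to make the internal promoter visible. Other genes of similar or higher signal were passed over where the gene or an identical copy of it lies on a chromosome whose sequences are not shown here. Each is the tRNA gene with the 20 bases after it, read from the RefSeq genome of assembly WBcel235, which has the coordinates of ce11. The A box, the B box (GTTCNANNC) and the T run are in capitals. Y69A2AR.t2, a Glu-TTC gene, had the highest signal and held no exact B box (chrIV:2639789-2639880, minus strand). C04A11.t1 is a Leu-CAA gene with an intron (chrX:13665555-13665693, plus strand). F15G9.t1 is an Ala-TGC gene (chrX:9743589-9743680, plus strand). C02B4.t2 is a Tyr-GTA gene with an intron (chrX:12665228-12665331, plus strand). F57F5.t1 is an Ile-TAT gene with an intron (chrV:12002176-12002280, plus strand). C33G3.t2 is a Lys-TTT gene (chrX:14063926-14064018, minus strand).
Y69A2AR.t2: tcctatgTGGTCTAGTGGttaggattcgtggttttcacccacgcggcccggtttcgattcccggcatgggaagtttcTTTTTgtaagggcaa
C04A11.t1: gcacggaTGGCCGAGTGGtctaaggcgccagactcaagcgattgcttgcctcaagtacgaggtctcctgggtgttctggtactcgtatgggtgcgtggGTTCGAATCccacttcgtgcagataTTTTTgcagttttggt
F15G9.t1: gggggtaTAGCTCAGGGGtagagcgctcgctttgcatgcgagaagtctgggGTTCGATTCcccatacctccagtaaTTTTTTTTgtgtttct
C02B4.t2: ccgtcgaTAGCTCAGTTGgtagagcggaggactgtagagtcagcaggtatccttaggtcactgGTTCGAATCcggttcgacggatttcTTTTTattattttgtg
F57F5.t1: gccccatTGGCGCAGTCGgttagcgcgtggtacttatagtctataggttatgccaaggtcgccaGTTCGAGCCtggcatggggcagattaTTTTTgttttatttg
C33G3.t2: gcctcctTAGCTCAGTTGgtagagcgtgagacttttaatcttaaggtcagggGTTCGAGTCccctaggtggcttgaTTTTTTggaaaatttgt

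Copies of these genes that are identical over the whole tRNA differed in whether they had a peak, so their flanks are shown beside each other. The 60 bases before F15G9.t1 (chrX:9743529-9743588, plus strand) stand before those of its identical copy Y105C5A.t2 (chrIV:15604384-15604443, minus strand), which had no entry in any list, ranked or thresholded. In the same way C02B4.t2 (chrX:12665168-12665227, plus strand) is set against R11.t4 (chrX:16208347-16208406, minus strand), and C33G3.t2 (chrX:14064019-14064078, minus strand) against C25F6.t4 (chrX:5451277-5451336, minus strand). Every line runs 5′ to 3′ towards the first base of the tRNA.
F15G9.t1: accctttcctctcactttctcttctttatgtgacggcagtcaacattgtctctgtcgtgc
Y105C5A.t2: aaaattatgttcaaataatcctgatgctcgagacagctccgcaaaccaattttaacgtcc
C02B4.t2: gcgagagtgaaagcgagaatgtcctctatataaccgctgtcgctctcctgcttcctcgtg
R11.t4: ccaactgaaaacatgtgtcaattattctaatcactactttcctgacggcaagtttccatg
C33G3.t2: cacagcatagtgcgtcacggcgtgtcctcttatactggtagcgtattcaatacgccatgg
C25F6.t4: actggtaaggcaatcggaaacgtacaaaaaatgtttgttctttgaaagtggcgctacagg
In these lines A and T made up 53.3% of bases before F15G9.t1 against 61.7% before Y105C5A.t2, 46.7% before C02B4.t2 against 61.7% before R11.t4, and 48.3% before C33G3.t2 against 58.3% before C25F6.t4. T07H6.t2, another identical copy of F15G9.t1 with a peak (signal 323), had 60%, close to Y105C5A.t2. The peak at F15G9.t1 is shared with the neighbouring gene F15G9.t2, which also lies within 150 bp of its summit. The count over all copies is given further on.

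More than 1 in 3 tRNA genes carried a peak. The 223 genes were 36.4% of 612 (95% interval 32.6% to 40.4%), beside 4.15% of all 46890 annotated nuclear genes counted with the same window. Replicate 1's own list reached 185 tRNA genes (30.2%, beside 3.01% of all genes) and replicate 2's own list 168 (27.5%, beside 2.5% of all genes), and 146 tRNA genes were reached in both. Among other biotypes, snoRNA genes had the next highest share, with 57 of 346 (16.5%), followed by 9 of 129 snRNA genes (6.98%) and 1243 of 19973 protein-coding genes (6.22%). The shares were 341 of 7764 (4.39%) for ncRNA genes, 12 of 261 (4.60%) for miRNA genes and 13 of 15363 (0.0846%) for piRNA genes. None of 20 rRNA genes had a summit, which allows a share of up to 16.8% by the exact interval. tRNA genes were among the shortest of these, with a median length of 72 bp against 2027 bp for protein-coding genes, so the window around a tRNA gene covers fewer bases.

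tRNA pseudogenes, copies that RefSeq lists as no longer coding for a tRNA, carried a peak less often than tRNA genes. A peak lay at 5 of 209 (2.39%, 95% interval 0.781% to 5.49%), against 36.4% of tRNA genes. The 4.15% of all annotated nuclear genes lies inside that interval, so pseudogenes were not set apart from genes in general. The 5 peaks had signals between 149 and 401. In the long ranked list from which the pooled list was cut, which holds weak entries too, 414 tRNA genes (67.6%) and 70 pseudogenes (33.5%) had an entry, beside 37.8% of all annotated genes. Of the 389 tRNA genes without a peak, 191 (49.1%) had such an entry, with a median signal of 44.4 and a highest of 108. The entries of genes with a peak had a median of 146 and a lowest of 16.5. A further 135 genes (34.7%) had no entry in any ranked list, and 9 had a peak in the thresholded list of 1 or both replicates while lacking a pooled one. Genes without a peak were therefore a mixture of genes with an entry in the pooled or another ranked list and of genes with no entry at all. Their pooled entries were mostly weaker, but the range of signal overlapped that of genes with a peak.

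The strongest tRNA-gene peak lay at Y69A2AR.t2, a Glu-TTC gene inside an untranslated exon of mdf-2, which encodes a spindle checkpoint protein. Its signal value, the authors' number for the height of a peak without a unit, was 540 in the pooled list, 269 in replicate 1 and 271 in replicate 2. C04A11.t1 (Leu-CAA, intergenic, X) followed with 493, and with 269 in replicate 1 and 237 in replicate 2. F15G9.t1 (Ala-TGC), in an intron of the hemicentin gene him-4 on X, had 408, and its replicates were farther apart, with 248 in replicate 1 and 149 in replicate 2. The pooled value is close to the sum of both replicates' values at these genes. The summit at F15G9.t1 also had the Ala-AGC gene F15G9.t2 within 150 bp, so that peak cannot be given to 1 of the pair.

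Next came X-linked genes of different isotypes with closely matching replicates. F22F1.t6 (Met-CAT) had 388, with 191 in replicate 1 and 199 in replicate 2, and F17H10.t1 (Gly-GCC), in an intron of the sorting nexin gene snx-17, had 386, with 184 and 201 in the same order. C28G1.t1 (Glu-TTC), in an untranslated exon of C28G1.2, had 379, with 202 in replicate 1 and 176 in replicate 2. None of these differed between replicates by as much as F15G9.t1. W03G11.t1 (Lys-CTT) had 368, with 178 in replicate 1 and 190 in replicate 2, and E03E2.t1 (Ser-GCT), in an intron of the vesicular monoamine transporter gene cat-1, had 360, with 169 and 190 in the same order. C42D8.t1 on X (345, with 174 in replicate 1 and 162 in replicate 2) and T21B4.t1 on II (343, with 187 and 155), the second in an intron of the collagen gene col-85, are copies of 1 Ile-AAT sequence. All 10 of these peaks were in both replicates' own lists, and 8 of the 10 lay on X.

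The strongest peaks of the other isotypes had signals between 185 and 342. Tyr-GTA at C02B4.t2 (in nhr-17, a nuclear hormone receptor gene) had 342, Trp-CCA at B0523.t1 (in fli-1, a flightless homologue) 341, Asn-GTT at F41D9.t3 (in the anion transporter gene sulp-3) 338, and Cys-GCA at C37A2.t1 (in the cyclin E gene cye-1) 333. Val-TAC at R04D3.t2 had 326, Thr-AGT at ZK563.t1 308, His-GTG at C06G1.t1 298, Arg-CCT at F29C4.t1 297 and Phe-GAA at Y39B6A.t9 295. Lower maxima were those of Asp-GTC at F38G1.t2 (259), Pro-TGG at ZK899.t1 (256) and Gln-TTG at R04A9.t1 (185). In the replicates' own lists these 12 peaks had values between 122 and 187 in replicate 1 and between 69.6 and 163 in replicate 2. Each of the 20 standard isotypes thus had at least 1 peak in both replicates.

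As a group the tRNA-gene peaks stood in the upper part of the list without reaching its top. Their median signal was 145 (range 8.59 to 540), at the median percentile 72.2 of the pooled list (95% interval 66.9 to 76.2), against a median of 102 (range 2.37 to 1295) at percentile 47.8 for the 2202 other peaks. No tRNA-gene peak was among the 20 strongest peaks, 2 were among the 50 strongest, 13 among the 100 strongest and 81 among the 500 strongest. By quartiles of the list from strong to weak, tRNA-gene peaks made up 97 of 604 (16.1%), 59 of 604 (9.77%), 37 of 604 (6.13%) and 20 of 603 (3.32%). The 4 tRNA-gene peaks with a signal under 50 all overlapped another peak of the list. On X the median was 158 (98 peaks), and on autosomes 137 (115 peaks).

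Both replicates' own lists held 137 of the 213 tRNA-gene peaks (64.3%, 95% interval 57.5% to 70.7%), against 885 of 2202 other peaks (40.2%, 38.1% to 42.3%). A further 29 were in replicate 1's list only, 21 in replicate 2's only and 26 (12.2%) in neither, the last against 581 other peaks (26.4%). Within quartiles of the list the difference was small beside its intervals. In the strongest quartile 96 of 97 tRNA-gene peaks (99.0%) were in both lists against 492 of 507 other peaks (97.0%), and in the next 37 of 59 (62.7%) against 319 of 545 (58.5%). In the one after it the counts were 2 of 37 (5.41%) against 42 of 567 (7.41%), and in the weakest 2 of 20 (10%) against 32 of 583 (5.49%). The 2 in the weakest quartile, at C16B8.t3 and F46G11.t1, overlapped a stronger peak at a neighbouring tRNA gene. At C16B8.t3 the replicate 2 match, and at F46G11.t1 both matches, had summits nearer to that neighbouring gene. The higher overall share thus went with the higher signal of the tRNA-gene peaks.

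For the 137 pairs the summits of the replicates lay a median of 13 bp apart, against 15 bp for 885 pairs of other peaks. The signal of the replicates had a Spearman correlation of 0.84 over these 137 tRNA-gene peaks, against 0.77 over the 885 other peaks, as a description of peaks that share their libraries. By the ratio of ranks, the largest shift towards replicate 1, at F15G9.t1 (rank 40 in replicate 1 and 126 in replicate 2), was followed by C30E1.t1 (403 and 1037) and R04A9.t1 (279 and 679). Towards replicate 2, by the same ratio, C16B8.t3 (rank 1622 in replicate 1 and 251 in replicate 2) led, followed by F28H6.t1 (357 and 89) and Y82E9BR.t1 (1275 and 383). At C16B8.t3, which had a pooled signal of 29.3, the overlapping replicate 2 peak had its summit at the neighbouring gene C16B8.t2, so this pair does not compare the same summit.

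**Figure D1:**
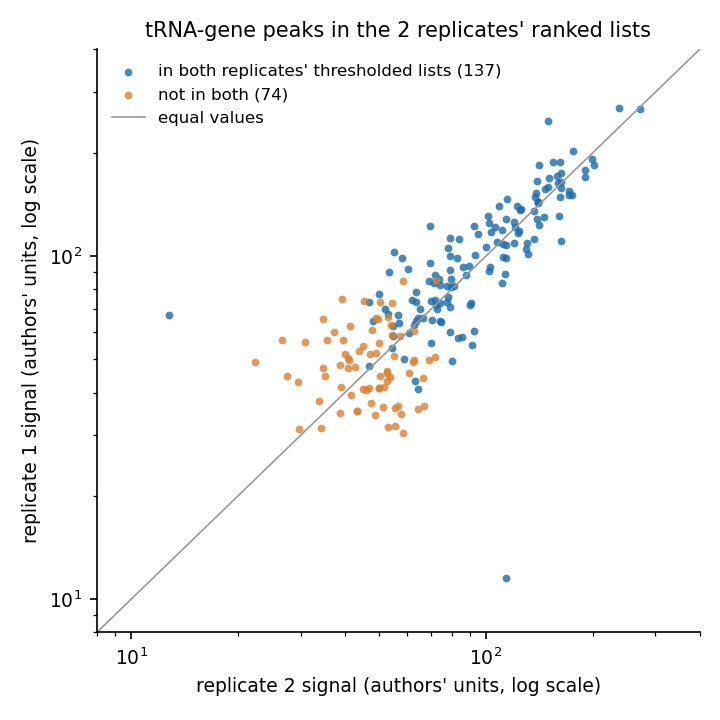
Signal of each tRNA-gene peak in the ranked list of replicate 1 (vertical, log scale, authors' units) against replicate 2 (horizontal, log scale). Points are the 211 peaks with an entry in both ranked lists, the 137 in both thresholded lists in blue and the rest in orange, and the grey line marks equal values. Most points lie along the line. The 2 far from it are C16B8.t3, with 11.6 in replicate 1, and F46G11.t1, with 67.5 in replicate 1 and 12.8 in replicate 2. At both, 1 matched entry had its summit nearer to a neighbouring tRNA gene, so these points do not compare the same summit.

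Most summits sat over the front part of the tRNA gene, from its first base to the middle. In 10 bp steps the largest number, 49 summits, lay from 10 to 20 bp. The median summit lay 22 bp downstream of the first base of the nearest tRNA gene (95% interval 17 to 25, n = 213), and 19 bp in replicate 1's list and 18 bp in replicate 2's. The A box began at position 8 (median of 592 genes) and the B box at position 53 (median of 587 genes), counted from 1 at the first base. Of the 213 summits, 178 (83.6%) fell inside the gene, 24 upstream and 11 downstream, and 141 of the 178 (79.2%) were between the 5′ end and the midpoint of the gene. The median was 22 bp at genes on the plus strand and 21.5 bp at genes on the minus strand, so the offset followed the direction of the gene.

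Stronger peaks sat more tightly in the front. In the strongest quartile of the tRNA-gene peaks 51 of 54 summits were inside the gene and 92.2% of these before its midpoint, with none downstream. In the weakest quartile 37 of 53 were inside, 64.9% of these before the midpoint. The Glu gene with the highest signal was an exception, with its summit 40 bp upstream of the gene. With the chromatin sheared to 200 bp or more, a summit marks the centre of many fragments, and a site cannot be placed to the base.

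**Figure D2:**
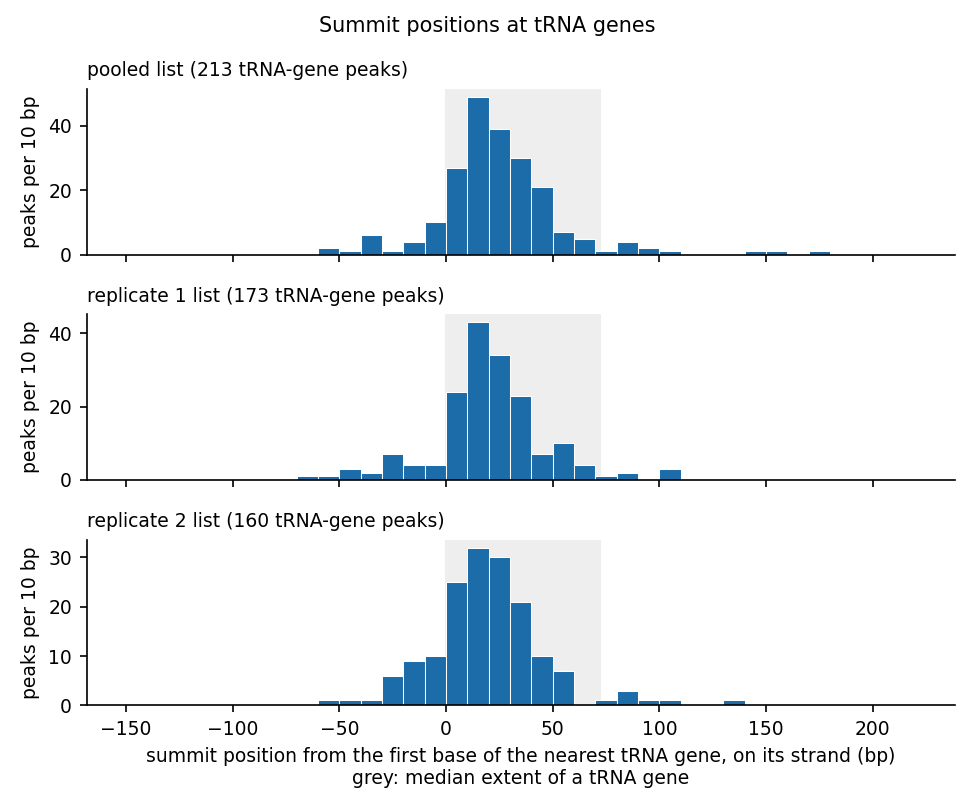
Number of tRNA-gene peaks per 10 bp (vertical) by the position of the summit from the first base of the nearest tRNA gene on its strand (horizontal, bp), for the pooled list and each replicate's own list. The grey band marks the median gene length of 72 bp, and in all 3 lists the highest bars lie in the first part of the gene.

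The rule's limit cut off little. Summits inside a tRNA gene numbered 178, those within 50 bp 208, within 150 bp 213, within 300 bp 219 and within 1000 bp 229. The outermost summits kept were at C44B7.t1 (107 bp away, signal 8.59), T01B4.t2 (80 bp, 87.1) and C16D9.t2 (66 bp, 93.6), and none of these 3 was in a replicate's own list. Just outside lay peaks near F14B4.t1 (155 bp, signal 2.74), Y65A5A.t2 (161 bp, 9.37) and F41A4.t1 (163 bp, 5.17).

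The internal promoter was present in tRNA genes whether or not they had a peak. An exact B box was found in 214 of 223 genes with a peak (96.0%) and in 373 of 389 without one (95.9%). A run of TTTT within 20 bp after the gene followed 220 genes with a peak (98.7%) and 382 without (98.2%). The A box was found in all 223 genes with a peak and in 369 of 389 genes without (94.9%). None of the 20 genes without an A box had a peak, which allows a share of up to 16.8% by the exact interval. The share of genes with a peak was 28.8%, 33.3%, 43.1% and 40.8% by quartiles of rising fit to the tRNA cloverleaf. Genes with and without a peak therefore differed little in these promoter elements, apart from the genes without an A box.

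A different sequence marked the other peaks of the list. The palindrome ATCGAT, searched on both strands like every word here, lay within 50 bp of 6 of 213 tRNA-gene summits (2.82%, 95% interval 1.04% to 6.03%). It lay within 50 bp of 1210 of 2202 other summits (55.0%, 52.8% to 57.0%), and in 3.34% of all genome windows of the same 101 bp. ATTGAT, with 1 base changed, was near 5 tRNA-gene summits (2.35%) and 824 other summits (37.4%), against 10.4% of genome windows. The B box word GTTCNANNC went the other way, with 148 tRNA-gene windows (69.5%) and 81 windows of other peaks (3.68%), against 3.53% of genome windows, which follows from choosing peaks at tRNA genes. ATCGAT near tRNA-gene summits was thus at the level of the genome. No match says only that these letters were not in the window, most of which is tRNA sequence. In the wider window of the gene and 150 bp on each side, ATCGAT was found at 21 of 223 tRNA genes with a peak (9.42%) and at 29 of 389 without one (7.46%). ATTGAT was found there at 48 of 223 with a peak (21.5%) and, more often, at 125 of 389 without one (32.1%).

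**Figure D3:**
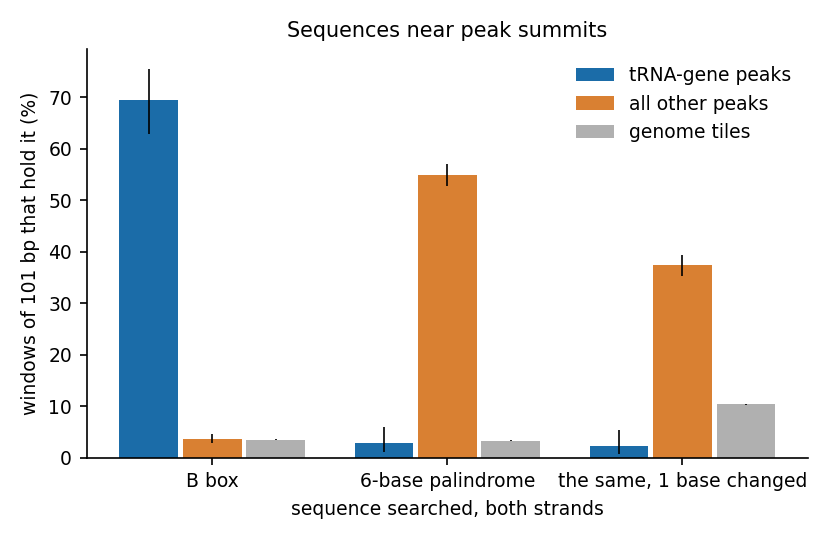
Share of 101 bp windows (vertical, percent) that hold the B box, the palindrome searched or the palindrome with 1 base changed, around the summits of tRNA-gene peaks (blue) and of all other peaks (orange) and in tiles of the whole genome (grey). Bars start at 0 and lines are exact 95% intervals; the palindrome was near 2.82% of tRNA-gene summits and 55.0% of other summits.

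The bases before the gene differed between tRNA genes with and without a peak. A and T made up a median of 56.7% of the 150 bases before genes with a peak (quartiles 53.3% and 60%, n = 223) against 62% before genes without one (57.3% and 66.7%, n = 389). After the gene the medians were 67.3% and 68.7% in the same order. Over the 100 bases before the gene, read on the gene's strand, C was the base that differed most upward, with 26.4% before genes with a peak against 21.4% before genes without, and A the most downward, with 24.2% against 29.5%. Within the gene itself C made up 26.0% against 25.7%. The gap was widest from 60 to 51 bases (51.0% against 60.7%) and from 40 to 31 bases (55.7% against 65.5%) before the gene, and absent in the last 10 bases (52.8% in both).

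Sorted by this A and T share, the tRNA genes showed a steep gradient. The share with a peak was 57.5% (88 of 153) in the lowest quartile, then 47.7% (73 of 153), 30.1% (46 of 153) and, in the highest, 10.5% (16 of 153) in the highest. Replicate 1's own list gave 54.2%, 40.5%, 19% and 7.19% over the same quartiles, and replicate 2's own list 47.1%, 39.9%, 16.3% and 6.54%. The order was the same on X (65.3%, 57.4%, 32.0% and 12.1%) and on autosomes (53.8%, 41.3%, 28.2% and 8.06%), although X held 49, 61, 75 and 91 of the genes in the 4 quartiles. It was also the same for genes inside protein-coding genes (55.3%, 41.8%, 28.8% and 10%) and outside them (60.3%, 54.1%, 31.0% and 10.8%). Sorted by the bases after the gene instead, the shares were 47.7%, 34.6%, 28.1% and 35.3%.

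Identical copies allowed the same comparison with the tRNA held constant. There were 57 families of 2 or more identical genes, with 469 genes, and in 41 of them some copies had a peak and others had none. A peak stood at every copy of 6 families and at no copy of 10, all of them families of 2 to 4 copies. Among the 20 families of 10 or more copies the share with a peak ran between 21.1% and 63.6%. In 19 of these 20 families the median A and T share was lower before the copies with a peak than before those without, and the median difference over all 20, with minus without, was -5.83 percentage points.

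The Gly-TCC family of 29 copies had a median of 56% before its 13 copies with a peak against 66% before the other 16. Lys-CTT (12 of 25 copies with a peak) had 52.3% against 62%, Ser-AGA (4 of 11) 57.3% against 67.3%, and Phe-GAA (4 of 10) 56% against 66.7%. The exception was Cys-GCA, with 57.3% before its 6 copies with a peak against 55.3% before its 6 copies without. Base composition can also change how well fragments are recovered and sequenced. The 301 bp around tRNA-gene summits had a median A and T share of 55.8%, against 61.8% around other summits and 64.6% over the nuclear genome, and the part of such recovery in the gradient was not tested.

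**Figure D4:**
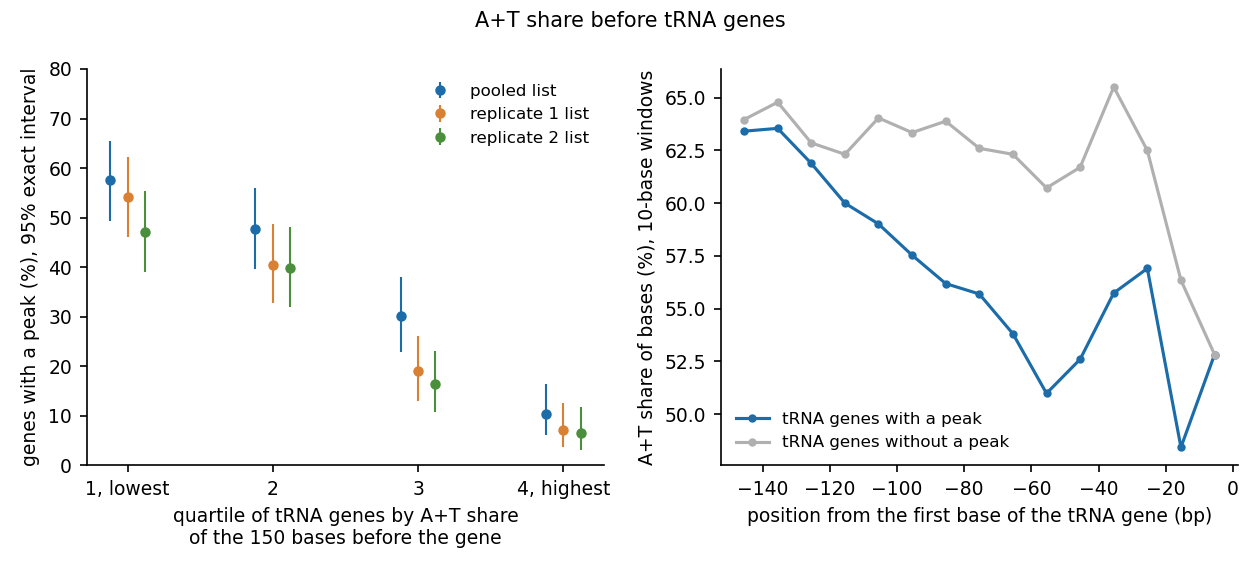
Left, share of tRNA genes with a peak (vertical, percent, with exact 95% intervals) by quartile of the A and T share of the 150 bases before the gene, from lowest to highest, in the pooled list and each replicate's own list. Right, A and T share (vertical, percent, axis not starting at 0) in 10-base windows before genes with a peak (blue) and without (grey), by distance from the first base (horizontal, bp). Shares fall over the quartiles to 10.5% in the pooled list, and the curves meet at 52.8% next to the gene.

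Every one of the 20 standard isotypes had tRNA genes with a peak, and the intervals of their shares overlapped. In the pooled list Ala genes had the highest share, with 18 of 34 (52.9%, 95% interval 35.1% to 70.2%), ahead of Met with 10 of 20 (50%), Glu with 19 of 41 (46.3%) and Cys with 6 of 13 (46.2%). The lowest were Ile with 7 of 29 (24.1%, 10.3% to 43.5%), His with 5 of 20 (25%), Ser with 10 of 39 (25.6%) and Gln with 7 of 27 (25.9%). Neighbours in this order differed by less than the width of their intervals, and the order changed between lists. In replicate 1's own list Cys was highest (7 of 13, against 13 of 34 for Ala) and His lowest (3 of 20). In replicate 2's own list Cys (6 of 13) again stood above Ala (15 of 34), and Gln was lowest (4 of 27). The share of Ala minus that of Ile was 28.8 percentage points in the pooled list, 14.1 without replicate 2 and 23.4 without replicate 1. The single selenocysteine gene and the 5 genes without an isotype in RefSeq had no peak.

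The median signal of an isotype's peaks varied among isotypes with similar shares. Among the isotypes with low shares, the 7 Ile peaks had a median of 322, the 9 Ser peaks 247 and the 5 Tyr peaks 226, while the 5 His peaks had 143 and the 7 Gln peaks 108, the lowest of all isotypes. Among those with high shares, the 17 Ala peaks had 139, the 9 Met peaks 119 and the 19 Glu peaks 143. Within an isotype the anticodons varied on small numbers. Leu-AAG had a peak at 3 of 20 genes and Leu-TAG at 3 of 3, Glu-TTC at 10 of 17 and Glu-CTC at 9 of 24, and Gly-GCC at 9 of 16, Gly-TCC at 14 of 36 and Gly-CCC at 0 of 3. Of the 29 genes with an intron 10 had a peak (34.5%), against 213 of 583 without an intron (36.5%).

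**Figure D5:**
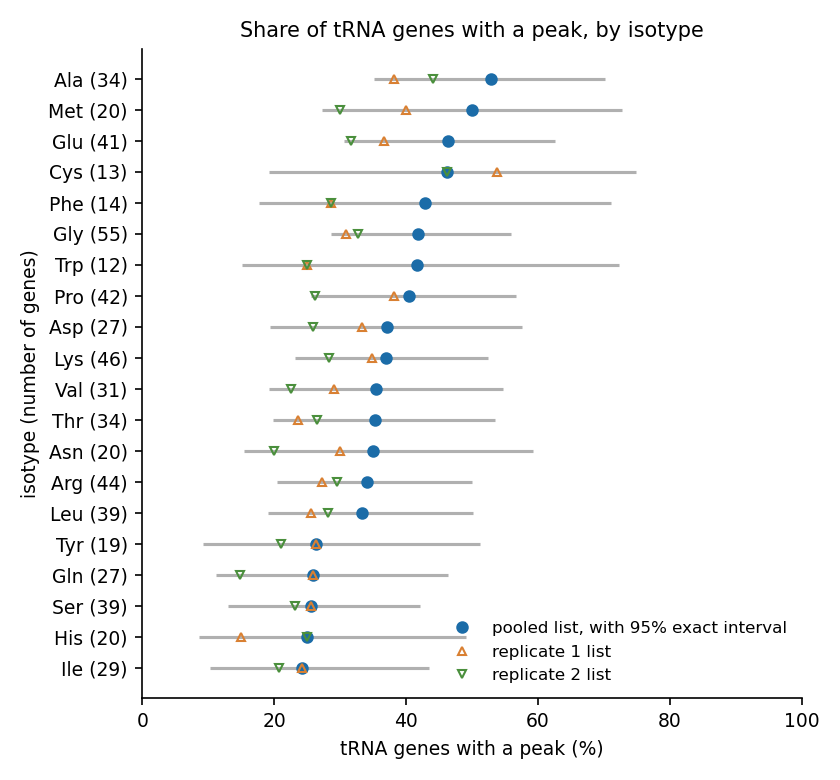
Share of tRNA genes with a peak (horizontal, percent) for each isotype with at least 10 genes (vertical, number of genes in brackets). Dots and lines are the pooled list with exact 95% intervals and triangles the replicates' own lists; in the pooled list Ala is highest at 52.9% and Ile lowest at 24.1%, with overlapping intervals, and the replicates' own lists give other orders.

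The share of tRNA genes with a peak was similar inside and outside protein-coding genes, and on X and autosomes taken whole. Of the tRNA genes inside protein-coding genes 105 of 290 had one (36.2%), against 118 of 322 outside (36.6%). Genes on the same strand as their host had a peak in 64 of 166 cases (38.6%, 31.1% to 46.4%), against 41 of 124 on the opposite strand (33.1%, 24.9% to 42.1%). The share on the same strand minus that on the opposite strand was 5.49 percentage points in the pooled list. It was 6.92 in replicate 1's own list and -5.54 in replicate 2's own list, so its sign differed between replicates. On autosomes 121 of 336 had a peak (36%), and on X 102 of 276 (37.0%). Within each quartile of A and T before the gene the share was higher on X, with overlapping intervals. Among chromosomes, II had the highest share (25 of 57, 43.9%) and V the lowest (21 of 78, 26.9%), with overlapping intervals. The 102 peaks inside protein-coding genes lay in 99 different hosts. The host rol-3 had 3, at C16D9.t3 and, as overlapping entries, at C16D9.t2.

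tRNA-gene peaks lay elsewhere on the chromosomes than the other peaks, as tRNA genes do. X held 98 of the 213 tRNA-gene peaks (46.0%) and 45.1% of all tRNA genes, against 236 of 2202 other peaks (10.7%). On the autosomes 42 of 115 tRNA-gene peaks (36.5%) were in the middle one of 3 equal parts of a chromosome, beside 32.7% of tRNA genes, against 353 of 1966 other peaks (18.0%). Promoter windows of protein-coding genes (1000 bp upstream to 200 bp downstream of a transcript start) held 54 tRNA-gene summits (25.4%), against 993 other summits (45.1%). The midpoints of 139 of all 612 tRNA genes lay in such a window.

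The share with a peak was lower among tRNA genes with a neighbour within 1000 bp, and the intervals did not overlap. It was 66 of 236 (28.0%, 22.3% to 34.2%) for genes in clusters and 157 of 376 (41.8%, 36.7% to 46.9%) for single genes. The share in clusters minus that of single genes was -13.8 percentage points with neighbours within 1000 bp, and -5.24 with neighbours within 300 bp. Among the single genes the gradient with A and T before the gene ran over 59.4%, 55.9%, 34.4% and 12.6%.

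No cluster of 4 or more genes had a peak at every gene. The 6 X-linked genes starting with F22F1.t2 (Ser, Asp, Ser, Asp, Met and Ile) had peaks at F22F1.t5 (146) and F22F1.t6 (388). The 6 His genes starting with F28H6.t2 had 1 peak (85.2), the 5 Gln genes starting with H08J11.t5 in ajm-1 had 1 (108), and the 4 Tyr genes starting with R11.t4 had 1 at R11.t1 (226). The 4 Val genes starting with T01B4.t1 had 2 peaks (115 and 87.1), and the 4 genes starting with Y65A5A.t1 had 2 (143 and 94.3). The 5 Arg and Cys genes starting with K01A12.t1 had no peak and no ranked entry, while the 4 Gly genes starting with C12C8.t5 each had a ranked entry and no peak. In all, 13 summits had 2 tRNA genes within 150 bp, so their peak cannot be given to 1 of them.

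Repeated sequence around the genes was measured by words of the genome. Words of 50 bp found once in the genome made up a median of 89.2% of the words in genes with a peak and their flanks, against 89.5% for genes without. Where fewer than 80% of words were unique, 6 of 50 genes had a peak (12%), against 217 of 562 elsewhere (38.6%). Of the genes with no identical copy 33 of 143 had a peak (23.1%), and of those with an identical copy 190 of 469 (40.5%). What lies behind either difference was not tested. Among genes with at least 80% unique words the shares over the A and T quartiles were 60.4%, 49.0%, 31.4% and 11.3%.

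Promoters of protein-coding genes of the tRNA pathway were counted beside those of all protein-coding genes. Of 32 aminoacyl-tRNA synthetase genes, which load tRNAs with amino acids, 3 had a summit in the promoter window (9.38%), beside 1215 of 19973 protein-coding genes (6.08%). They were ears-2 (343, with 220 in replicate 1 and 121 in replicate 2), fars-2 (272, with 142 and 125) and lars-1 (78.7, in neither replicate's own list). A list for RNA polymerase III and its factors also held subunits shared with other polymerases and tRNA-processing genes such as hoe-1. Of its 22 genes 1 had a summit (4.55%). It was rpc-11, which encodes a subunit of the polymerase (106, with 54.2 in replicate 1 and 59.7 in replicate 2). None of these 4 summits lay at a tRNA gene.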

How the data were processed

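Peak lists of 2 replicates of 1 group were used, on assembly ce11 per the labels. Which aligner and which caller made them is not given in the sources used here. Deposited notes list further inputs by accession only, and the labels name a possible control, which was not analysed here. Lists were made per replicate and from both replicates by the irreproducible discovery rate (IDR). The authors deposited a signal value per peak, without unit and used only within a list or to rank matched peaks. The authors' score, derived from the IDR and capped at 1000, and the deposited −log10 q-values were not tested. No file gives counts of reads, so depth is unknown and exact binomial 95% intervals cover the counting of peaks or genes only.

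Summits were set against the tRNA genes of Ensembl release 115. Isotypes came from RefSeq, and anticodons were read from the cloverleaf for 603 of 612 genes. Peaks were matched between lists by an overlap of at least 1 bp, taking the nearest summit. Named genes were the 10 strongest, the strongest per isotype, those with the largest ratio of ranks between replicates or nearest the limit, clusters of 4 or more, hosts, identical copies and genes whose sequences are shown. Members and lists were chosen with earlier results of these data known. The A box, cloverleaf fit, pseudogenes, words and flank composition were added after the files were seen. With 1 group, no test between conditions was made. Python 3.11.15, numpy 2.4.6, scipy 1.17.1 and matplotlib 3.10.9 were used, and the procedures were tested on simulated data with known answers.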

Additional observations from a re-analysis of the deposited data

How the results depend on the processing

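Of 91 alternatives over 16 results, 78 stayed within the interval of the value reported, or within 1.5 times for counts, 13 moved outside it and none changed sign where the reported difference was beyond its interval. tRNA-gene peaks made up 7.37% of the list with summits inside the gene only, 12.9% among the 1207 strongest peaks, and 10.6% to 12.1% with 1 replicate left out. tRNA-gene peaks in both replicates' lists fell to 48.4% when at least 0.5 of both intervals had to overlap. Their median percentile was 59.3 among the 1207 strongest and 64.2 to 64.9 with 1 replicate left out. The share of genes with at least 80% unique words was 8.62 percentage points higher with a peak, and 4.11 with words of 100 bp. The share of clustered minus single genes with a peak was -5.24 points at 300 bp in place of -13.8. The difference in A and T before genes, with minus without a peak, was -5.33 points over 150 bases, -8 over 75 and -1.67 over 300. ATCGAT lay within 150 bp of 7.51% of tRNA-gene summits, against 65.2% of other summits; these alternatives on composition and words were chosen after seeing the data. The cause of these shifts was not tested. No paired analysis was possible because the replicates form 1 group. Depth is unknown, so a tRNA gene without a peak is not shown to be unbound.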
